A study of Mus musculus with 16 samples.

Results

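Flavin-containing monooxygenases (FMO) and aldehyde oxidases (AOX) are oxidizing enzymes of liver that act beside the cytochromes P450. The genes described here are Fmo1, Fmo2, Fmo4, Fmo5, Aox1 and Aox3, taken by their symbols from the 41585 rows of a table of read counts per gene. All 6 of these rows passed the filter on low counts, which 13470 rows passed in all. The counts came from RNA of 16 livers of C57BL/6 mice, 4 libraries each from Cyp2b-null females, hCYP2B6-Tg females, Cyp2b-null males and hCYP2B6-Tg males. Cyp2b-null mice lack mouse genes of the Cyp2b family, and hCYP2B6-Tg mice carry the human gene CYP2B6. All groups received a diet of 60% fat for 16 weeks, and no group on another diet was analysed here. The sources used here do not give age, the promoter of the transgene or whether the hCYP2B6-Tg mice also lack their own Cyp2b genes. The design text places the study in diet-induced obesity and asks how the human enzyme bears on the liver transcriptome.

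FMOs sit in the membrane of the endoplasmic reticulum, hold the flavin FAD and use NADPH and oxygen to oxygenate nitrogen and sulfur atoms of drugs, dietary amines and other compounds. Fmo1 has a broad range of substrates, Fmo2 is best known as a lung form, the substrates of Fmo4 are poorly known, and Fmo5 can insert oxygen beside a carbonyl group. AOXs are cytosolic enzymes that carry FAD, iron-sulfur clusters and a molybdenum cofactor, and oxidize aldehydes, among them retinaldehyde, and nitrogen heterocycles found in many drugs. Aox1 and Aox3 are the forms of mouse liver, while Aox2 and Aox4 belong to other epithelia.

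On build GRCm38 with GENCODE M21, Fmo1 (ENSMUSG00000040181) lies at chr1:162829561-162866610, Fmo2 (ENSMUSG00000040170) at chr1:162874317-162898726 and Fmo4 (ENSMUSG00000026692) at chr1:162793188-162813972, all on the minus strand. Aox1 (ENSMUSG00000063558) at chr1:58029931-58106413 and Aox3 (ENSMUSG00000064294) at chr1:58113130-58200698 follow each other on the plus strand of the same chromosome. Fmo5 (ENSMUSG00000028088) stands alone on the plus strand at chr3:97628804-97655282. No exon base of the 6 genes is shared with another GENCODE gene. In the RefSeq annotation of GRCm38.p6, Aox3 overlaps the predicted genes Gm24548 and Gm39643, and Fmo5 overlaps Chd1l.

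The sequences before the starts of Aox1, Aox3 and Fmo2 are shown because these 3 genes had some of the largest differences between the sexes. They come from RefSeq on GRCm38.p6, run 5′ to 3′ on the gene's own strand and stop before the first annotated exon base. Capitals mark matches to the motifs listed after them.
Aox1, chr1:58029719-58029808, plus strand: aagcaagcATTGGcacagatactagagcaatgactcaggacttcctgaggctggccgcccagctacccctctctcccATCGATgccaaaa
Aox3, chr1:58112886-58113129, plus strand: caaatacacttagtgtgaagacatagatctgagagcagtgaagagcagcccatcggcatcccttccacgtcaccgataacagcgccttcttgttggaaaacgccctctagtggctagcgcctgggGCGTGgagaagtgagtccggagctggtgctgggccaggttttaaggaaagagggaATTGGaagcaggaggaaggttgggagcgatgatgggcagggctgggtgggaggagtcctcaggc
Fmo2, chr1:162898759-162899008, minus strand: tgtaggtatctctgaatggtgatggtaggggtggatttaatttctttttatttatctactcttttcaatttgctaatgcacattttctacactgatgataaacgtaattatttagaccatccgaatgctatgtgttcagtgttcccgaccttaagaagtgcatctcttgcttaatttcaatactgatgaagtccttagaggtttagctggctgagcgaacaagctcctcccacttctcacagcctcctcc

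RefSeq windows of 300 bases around the start were found for 5 of the 6 genes, 6 windows in all. They were searched on both strands for 9 motifs, and the matches found in these windows did not overlap each other. The box ATCGAT, found in 0.925% of 32851 mouse promoters, was matched in Aox1 alone, from base -173 to -168 counted from the start used in RefSeq's window. GCGTG, the core read by the aryl hydrocarbon receptor and present in 32.4% of promoters, was matched in Aox1 at -137, outside the stretch shown, and in Aox3 at -125. CCAAT, present in 37.4%, was matched in Aox1, Aox3, Fmo4 and Fmo5, in 3 of them as ATTGG on the gene's strand. TATAAA (13.6%) was matched in Fmo5 at -195 on the other strand. In this Fmo5 window 215 of the 250 bases before the start lie in annotated exons of Fmo5 itself, with both of its matches. TTCNNNGAA (8.30%), the spaced half-sites bound by STAT5, was matched in a second window of Fmo2, at +12 to +20. There 227 of the 250 bases before the start lie in annotated exons of Fmo2. ATCAAT (7.54%), TGACNNNGC (12.4%), CAAAGTCCA (0.475%) and TTGCGCAA (0.183%) were matched in none of the 6 windows. These matches describe letters and were not tied to binding or to expression.

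Library totals ran from 5584587 to 9672708 counts, and 17748 to 19181 genes had at least 1 count. Levels are given as CPM, read counts scaled to a common library size with TMM, a normalization that lines up libraries on the bulk of their genes. Taking 3 counts as the most that a 0 can hide, a gene without counts in a library could still stand at 0.310 to 0.537 CPM, depending on the library and for counting error only. Xist and Ddx3y fitted the labelled sex in 16 of 16 libraries, and the 6 hepatocyte markers were all detected. Nothing in the labels states that each library came from its own animal, so p-values measure the spread between libraries, which may be partly technical. In bulk RNA, fewer cells of a type and less RNA per cell cannot be told apart.

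All 6 genes were expressed, at levels far apart. Averaged over the 16 libraries, Aox3 (508 CPM) and Fmo5 (487 CPM) were 242nd and 255th of the 13470 tested genes by CPM, which ignores gene length. Fmo1 followed at 267 CPM, Aox1 at 80.3 CPM, Fmo2 at 34.8 CPM and Fmo4 at 11.0 CPM. Fmo4 was the thinnest record, with 40 to 150 counts a library, whereas Fmo5 had 2016 to 5598. Between genes only levels per length can be compared. Per kilobase of merged exons they were 85.7 CPM for Fmo5, 72.2 for Aox3, 42.4 for Fmo1, 9.24 for Aox1, 6.21 for Fmo2 and 2.96 for Fmo4. Per kilobase of the longest transcript, Aox3 came first with 110 CPM, then Fmo5 with 93.6 and Fmo1 with 86.0, while Aox1 (12.5), Fmo2 (8.56) and Fmo4 (4.09) kept their order. Which of the first 3 stood highest therefore depended on the length used, and the low standing of Aox1, Fmo2 and Fmo4 did not.

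Of the other family members read here, Aox4 and Fmo9 had no count in any of the 16 libraries, and Aox2 and Fmo6 were near 0. Aox2 summed to 1, 1, 2 and 2 counts, and Fmo6 to 5, 1, 1 and 2 counts, in Cyp2b-null females, hCYP2B6-Tg females, Cyp2b-null males and hCYP2B6-Tg males. All 4 rows fell below the filter and were not tested.

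**Figure D1:**
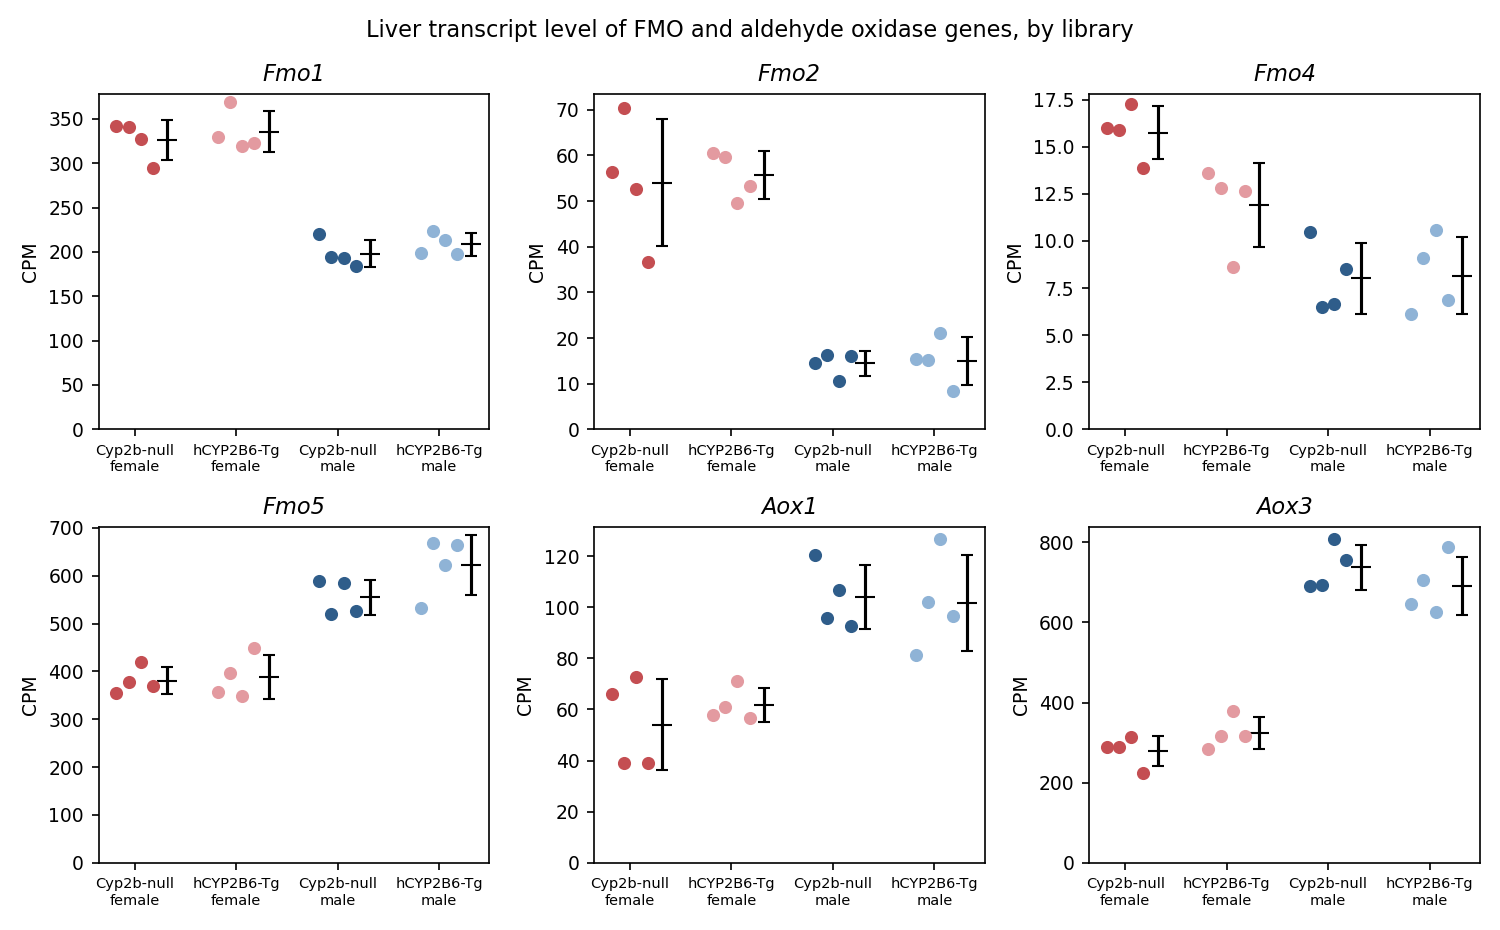
Level of each gene in CPM (vertical axes, each starting at 0) in the 16 libraries, 1 panel a gene, with groups along the horizontal axis. Points are libraries, bars are means with SD over 4 libraries; Fmo1, Fmo2 and Fmo4 stand higher in females, Fmo5, Aox1 and Aox3 higher in males, and the 2 genotypes of a sex overlap in most panels.

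The question of sex was asked within each genotype, and the genes split by direction. In Cyp2b-null livers, Fmo1, Fmo2 and Fmo4 were higher in females and Fmo5, Aox1 and Aox3 were lower. In hCYP2B6-Tg livers the same 5 genes other than Fmo4 passed the test in the same direction. The largest folds were 3.73 for Fmo2, toward females, and 2.64 for Aox3, toward males, both in Cyp2b-null livers.

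Fmo1, the FMO with the broad substrate range, was higher in females in both genotypes. Its level was 342, 341, 328 and 294 CPM in Cyp2b-null females, and 329.9, 369, 319.6 and 323 CPM in hCYP2B6-Tg females. Males had 220.5, 195, 193 and 184 CPM when Cyp2b-null and 199, 224, 214 and 197 CPM when hCYP2B6-Tg. Every female library was thus above every male library. The log2 difference of females from males was 0.72 ± 0.08 (SE) in Cyp2b-null livers, a fold of 1.65 (edgeR's quasi-likelihood test, Benjamini-Hochberg adjusted p = 9.83e-07). It was 0.69 ± 0.08, a fold of 1.61, in hCYP2B6-Tg livers (edgeR, adjusted p = 2.12e-06).

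Fmo2, the lung form, had the widest gap in fold. Cyp2b-null females had 56.4, 70.5, 52.7 and 36.6 CPM, and hCYP2B6-Tg females 60.6, 59.6, 49.5 and 53.4 CPM. Cyp2b-null males had 14.6, 16.4, 10.6 and 16.1 CPM, and hCYP2B6-Tg males 15.4, 15.1, 21.2 and 8.31 CPM. The lowest female library stood above the highest male library, although libraries of 1 group spread widely, by 13.9 CPM (SD, n = 4) around 54.0 CPM in Cyp2b-null females. The log2 difference was 1.90 ± 0.24 (SE; edgeR, adjusted p = 9.78e-05) in Cyp2b-null livers and 1.89 ± 0.24 (edgeR, adjusted p = 8.56e-05) in hCYP2B6-Tg livers, where the fold was 3.72. Summed lung markers stayed at or below 1.003 CPM in every library, and Scgb1a1 of the airway was at 0 in all 16.

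Fmo4 was higher in females in the Cyp2b-null livers. Its level was 16.0, 15.9, 17.3 and 13.9 CPM in the 4 Cyp2b-null female libraries against 10.5, 6.47, 6.63 and 8.49 CPM in the 4 male ones, with no overlap. The log2 difference was 0.99 ± 0.19 (SE), a fold of 1.98 (edgeR, adjusted p = 0.000928). In hCYP2B6-Tg livers, females had 13.6, 12.8, 8.63 and 12.7 CPM and males 6.11, 9.08, 10.6 and 6.89 CPM. There female 4 fell below males 3 and 4, and the log2 difference of 0.54 ± 0.19 missed the threshold (edgeR, adjusted p = 0.0671). It passed without hCYP2B6-Tg female 4 (edgeR, log2 difference 0.66, adjusted p = 0.0302), without hCYP2B6-Tg male 4 (0.70, adjusted p = 0.0286), with library totals as the only scaling (adjusted p = 0.0493) and with limma's quality weights (adjusted p = 0.0483). It also passed without Cyp2b-null females 1 and 3 and hCYP2B6-Tg male 4 together (edgeR, 0.70, adjusted p = 0.0347). That set holds male 4 and was chosen with earlier results of these data known. In 23 of 28 alternatives Fmo4 did not pass in hCYP2B6-Tg livers, with an adjusted p up to 0.187 (edgeR, leaving out 1 library).

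Fmo5 ran the other way from its relatives. Females had 354, 378, 420 and 370.2 CPM when Cyp2b-null and 356, 397, 348 and 449.6 CPM when hCYP2B6-Tg. Males had 589, 521, 586 and 527 CPM when Cyp2b-null and 533, 668, 622 and 665 CPM when hCYP2B6-Tg. All 8 male libraries stood above all 8 female libraries. The log2 difference of females from males was -0.55 ± 0.09 (SE; edgeR, adjusted p = 0.00026) in Cyp2b-null livers and -0.68 ± 0.09 (edgeR, adjusted p = 1.37e-05) in hCYP2B6-Tg livers, so that males were 1.46-fold and 1.60-fold higher.

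Aox1 was lower in females in both genotypes. Cyp2b-null females had 65.9, 38.98, 72.6 and 38.9 CPM, in a high and a low pair, and hCYP2B6-Tg females had 57.7, 60.9, 71.3 and 56.6 CPM. Cyp2b-null males had 120.4, 95.9, 107 and 92.5 CPM, and hCYP2B6-Tg males had 81.4, 102, 127 and 96.6 CPM. No female library reached a male one. Males were 1.92-fold higher in Cyp2b-null livers (edgeR, log2 difference of females from males -0.94 ± 0.20, SE; adjusted p = 0.00696) and 1.65-fold higher in hCYP2B6-Tg livers (-0.73 ± 0.19, adjusted p = 0.0272). The second call was close to the threshold. By edgeR it was lost with no filter on low counts (adjusted p = 0.0602) and without hCYP2B6-Tg female 1 (0.0678), female 2 (0.0664), female 5 (0.0817), male 3 (0.0604), male 4 (0.0733) or male 5 (0.0514). The log2 difference in these 7 settings ran from -0.75 to -0.60, the latter without male 4.

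Aox3 had the lowest adjusted p of the 6 genes in both genotypes. Cyp2b-null females had 289, 288, 314 and 225 CPM, and hCYP2B6-Tg females 285, 317, 379 and 316 CPM. Males had 691, 694, 809 and 756 CPM when Cyp2b-null and 647, 706, 626 and 788 CPM when hCYP2B6-Tg. The gap between the highest female library, at 379 CPM, and the lowest male library, at 626 CPM, was wider than the spread within any group. The log2 difference of females from males was -1.40 ± 0.11 (SE; edgeR, adjusted p = 6.75e-10) in Cyp2b-null livers and -1.09 ± 0.10 (edgeR, adjusted p = 5.55e-08) in hCYP2B6-Tg livers, male folds of 2.64 and 2.13. The overlapping row Gm39643 had a mean of 9.32 CPM and was lower in females in both genotypes. Whether its exons overlap those of Aox3 was not checked and the strand setting is unknown, so the 2 rows may share reads.

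By count, Cyp2b-null livers had 6 of 6 genes past the threshold between the sexes, 3 toward each sex, against 7.42% of all tested genes (3.5% higher and 3.93% lower in females). In hCYP2B6-Tg livers 5 of 6 passed, 2 toward females and 3 toward males, against 10% of all tested genes (4.54% higher and 5.49% lower in females). Female and male libraries did not overlap for 6 of 6 genes in Cyp2b-null livers, where 12.3% of all tested genes did so, and for 5 of 6 in hCYP2B6-Tg livers, where 15.6% did. The median size of the log2 difference was 0.96 over the 6 genes and 0.18 over all tested genes in Cyp2b-null livers, and 0.71 and 0.19 in hCYP2B6-Tg livers. The genes were chosen with earlier results of these data known, so these shares describe them and support nothing further.

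**Figure D2:**
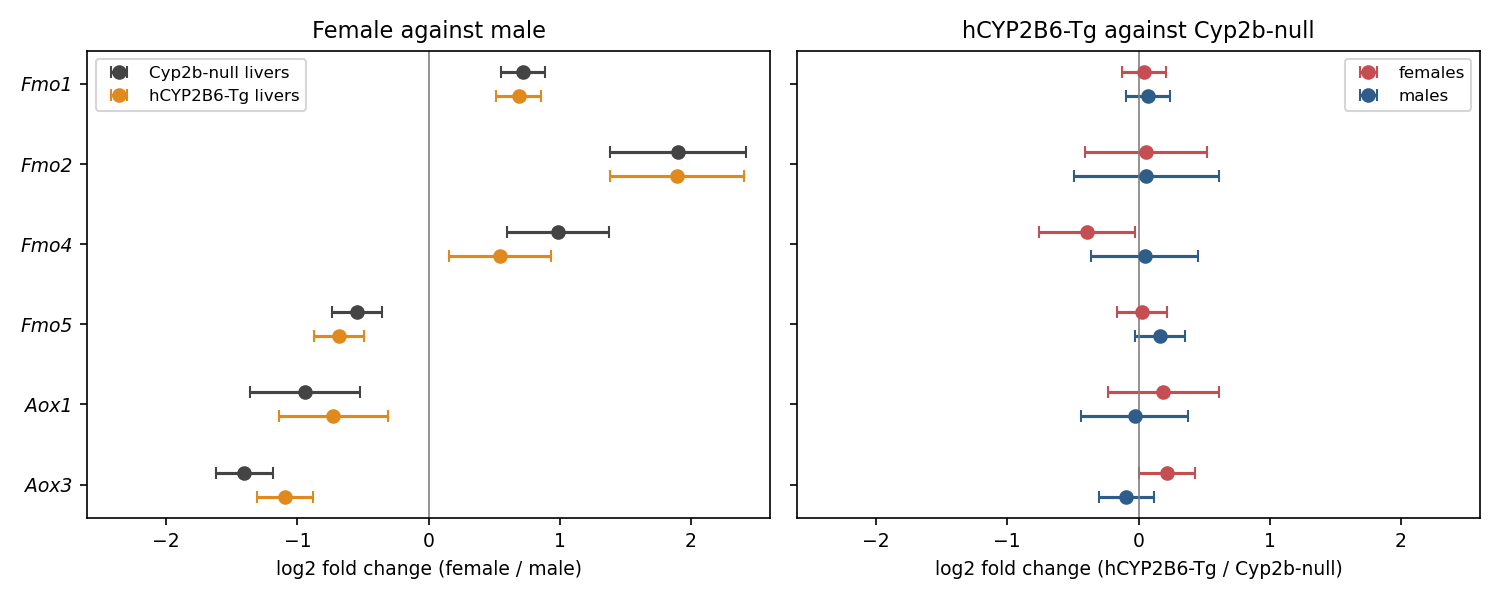
Log2 differences (horizontal axis) of the 6 genes with their 95% confidence intervals from edgeR, for females against males in each genotype and for hCYP2B6-Tg against Cyp2b-null in each sex. Sex differences of 11 of the 12 pairs of gene and genotype passed the threshold, and all 12 genotype differences stood between -0.39 and 0.22.

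Ratios of counts within a library, which no scaling can move, were chosen once the data were known and are given as a description. Fmo1 had 0.780 to 0.966 counts for each count of Fmo5 in Cyp2b-null females and 0.719 to 0.929 in hCYP2B6-Tg females. In males it had 0.330 to 0.374 and 0.297 to 0.373. The lowest female ratio was thus above the highest male ratio. Fmo2 to Fmo1 also split by sex, at 0.124 to 0.207 and 0.155 to 0.184 in females and 0.0547 to 0.0874 and 0.0421 to 0.0989 in males, Cyp2b-null first. Aox1 to Aox3 overlapped between the sexes, at 0.135 to 0.232 and 0.179 to 0.203 in females and 0.122 to 0.174 and 0.123 to 0.203 in males.

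**Figure D3:**
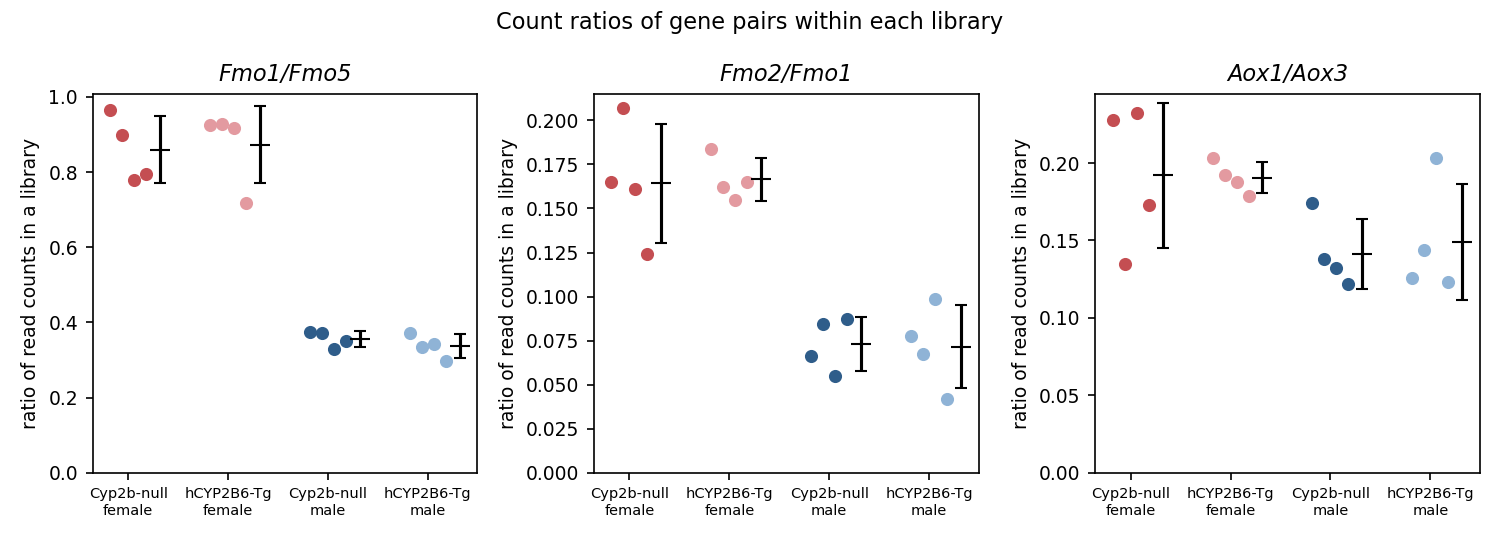
Ratio of read counts of 2 genes within each library (vertical axes, linear) for Fmo1 to Fmo5, Fmo2 to Fmo1 and Aox1 to Aox3, by group. Each point is 1 library, and bars are means with SD over 4 libraries; the first 2 ratios do not overlap between females and males, and the third does.

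The main question of the study, hCYP2B6-Tg against Cyp2b-null, moved none of the 6 genes past the threshold. In females 0 of 6 passed, where edgeR called 0% of all tested genes. There limma voom also called 0 of the 6 and 0 genes in all. DESeq2 called 8 genes in all and 0 of the 5 for which it gave an adjusted p, which did not include Fmo4. In males 0 of 6 passed, against 0.126% of all tested genes. Averaged over the sexes 0 of 6 passed (0.0148% of all tested genes), with adjusted p from 0.824 to 0.981 by edgeR. At an unadjusted p under 0.05 there were 2 of the 6 genes in females, 0 in males and 0 in the average, beside 979, 944 and 917 of the 13470 tested genes.

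The 2 in females were Fmo4 and Aox3. Fmo4 was 11.9 ± 2.23 CPM in hCYP2B6-Tg and 15.8 ± 1.41 CPM in Cyp2b-null females (SD, n = 4), and the 4 transgenic libraries were all below the other 4. Libraries of the 2 genotypes failed to overlap in females for 3.5% of all tested genes and in males for 4.77%, with none of the 6 among the latter. The log2 difference was -0.39 ± 0.18 (SE), with a 95% interval of -0.76 to -0.03 (edgeR, adjusted p = 0.656). Aox3 was 324 ± 39.7 CPM in hCYP2B6-Tg and 279 ± 37.8 CPM in Cyp2b-null females, with overlapping libraries. Its log2 difference was 0.22 ± 0.10 (SE), with a 95% interval of 0.003 to 0.43 (edgeR, adjusted p = 0.675).

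The other intervals show what size of genotype difference these libraries leave possible. Fmo1 was the most tightly bounded, at -0.13 to 0.21 on the log2 scale in females and -0.09 to 0.24 in males. Fmo5 had -0.16 to 0.22 and -0.03 to 0.35, and Aox3 in males had -0.30 to 0.12. The bounds were wider for Aox1, at -0.23 to 0.61 in females and -0.44 to 0.38 in males. They were widest for Fmo2, at -0.41 to 0.52 in females and -0.49 to 0.61 in males, and Fmo4 in males had -0.36 to 0.46. A p above the threshold does not show that the genotypes had equal levels.

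Whether the genotype difference depended on sex was tested as an interaction, and 0 of 6 genes passed, where 0.0371% of all tested genes did (1017 genes, 1 of them among the 6, had an unadjusted p under 0.05). The lowest p was that of Aox3, whose genotype difference in males minus that in females was -0.31 ± 0.15 on the log2 scale (edgeR, adjusted p = 0.644). The same contrast for Fmo4 was 0.44 ± 0.27 (edgeR, adjusted p = 0.749). The sex difference of Fmo4, past the threshold in 1 genotype only, was therefore not shown to differ between the genotypes. For Fmo1, Fmo2, Fmo5 and Aox1 the adjusted p ran from 0.86 to 0.999 by edgeR.

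In order of group means, Fmo1, Fmo2 and Fmo4 had both female groups above both male groups, and Fmo5, Aox1 and Aox3 had both male groups above both female groups. Fmo1 had means of 335 ± 22.9 and 326 ± 22.3 CPM in hCYP2B6-Tg and Cyp2b-null females and 209 ± 12.8 and 198 ± 15.5 CPM in the males (SD, n = 4). Fmo2 had 55.8 ± 5.28 and 54.0 ± 13.9 CPM in these females and 14.99 ± 5.26 and 14.4 ± 2.69 CPM in the males. For Fmo5 the means were 622 ± 62.7 CPM in hCYP2B6-Tg males, 556 ± 36.6 CPM in Cyp2b-null males, 388 ± 46.4 CPM in hCYP2B6-Tg females and 381 ± 28.1 CPM in Cyp2b-null females. Within a sex the libraries of the 2 genotypes overlapped for each of the 6 genes, except for Fmo4 in females.

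Markers of other cell types were read in the same libraries. Summed Kupffer cell markers (6 of 6 tested) were higher in females without overlap, at 226 to 375 against 156 to 224 CPM in Cyp2b-null and 225 to 317 against 175 to 212 CPM in hCYP2B6-Tg livers. Of these 6 markers, 2 passed the threshold in Cyp2b-null and 1 in hCYP2B6-Tg livers, all higher in females. Summed fat cell markers (2 of 7 tested) were lower in females, at 3.11 to 8.73 against 10.4 to 25.7 CPM in Cyp2b-null livers. In hCYP2B6-Tg livers they had 3.95 to 6.95 against 8.38 to 46.2 CPM. Of the 2 tested, 1 passed in each genotype, lower in females. Cfd had 0 to 3 counts in female and 31 to 266 in male libraries. Adipoq, Plin1, Lep and Retn had at most 7 counts in any library of either sex. Summed hepatocyte markers were higher in females without overlap in Cyp2b-null livers, at 105751 to 128808 against 97673 to 103821 CPM. In hCYP2B6-Tg livers they overlapped, at 103738 to 123763 against 103550 to 111687 CPM. Most of this sum was Alb, and the 6 markers did not move together. In Cyp2b-null livers 4 were higher and 2 lower in females, with 1 past the threshold each way. In hCYP2B6-Tg livers 3 were higher and 3 lower, and 2 passed, both lower. The part of these markers in the sex differences of the FMO and AOX genes was not tested. The library with 46.2 CPM of fat cell markers, hCYP2B6-Tg male 4, also had the highest Fmo2, Fmo4 and Aox1 of its group. Its fat cell counts were Cfd (266), Fabp4 (123) and Cidea (22), with no count of Adipoq, Plin1, Lep or Retn. Whether they came from fat cells was not tested. Without this library the sex difference in hCYP2B6-Tg livers was 2.12 for Fmo2 (edgeR, adjusted p = 1.69e-05). The values for Fmo4 and Aox1 are those given with each gene. Summed kidney markers stayed at or below 0.573 CPM. Summed endothelial and stellate cell markers overlapped between the sexes in both genotypes. Cyp2b-null male 4 had the highest sums of bile duct cell markers, at 97.7 CPM, and of pancreas markers, at 54.3 CPM. It held 270 counts of Krt19 and 159 of Ctrb1. Without that library 6 of 6 genes still passed between the sexes in Cyp2b-null livers.

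Genes of cofactor and electron supply were read in 4 lists, for the molybdenum cofactor, flavin, NADPH and microsomal electron partners. The last list includes Por, which feeds cytochromes P450, and was not taken as a list of FMO or AOX partners. Between the sexes 1 of their 21 tested genes passed in Cyp2b-null livers, against 7.42% of all tested genes, and 5 of 21 in hCYP2B6-Tg livers, against 10%. The molybdenum cofactor that AOX proteins need is made by Mocs1, Mocs2, Gphn and others and finished by Mocos. Of the 12 symbols listed for that pathway and other molybdenum enzymes, 8 had a row and were tested. Marc1, Marc2, Mtarc1 and Mtarc2 had no row under these symbols and were not read. As 27 row names had turned into dates, rows of Marc1 and Marc2 may stand under such names. Of the 8 tested genes, 0 passed in any of the 6 contrasts. With so few genes, 0 of 8 is not set apart from the shares over all tested genes. Aox1 and Aox3 passed between the sexes in both genotypes. The list's median log2 difference of females from males was -0.17 in Cyp2b-null and -0.11 in hCYP2B6-Tg livers, with 7 of 8 and 6 of 8 genes lower in value. Its lowest p was that of Nfs1, a sulfur donor of the pathway, at -0.25 ± 0.09 (edgeR, adjusted p = 0.0878) in Cyp2b-null livers and that of Mocs2 at -0.18 ± 0.08 (edgeR, adjusted p = 0.159) in hCYP2B6-Tg livers.

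FAD, which both families carry, is made from riboflavin by Rfk and Flad1. Of 4 tested genes of flavin supply, 1 passed in each genotype, Rfk (riboflavin kinase). It had 72.4 ± 2.61 CPM in females and 52.3 ± 2.44 CPM in males among Cyp2b-null livers (SD, n = 4), and 74.5 ± 4.42 and 55.3 ± 3.51 CPM among hCYP2B6-Tg livers. The log2 difference was 0.47 ± 0.08 (edgeR, adjusted p = 0.000301) and 0.43 ± 0.08 (edgeR, adjusted p = 0.000719). Rfk thus had the direction of Fmo1, Fmo2 and Fmo4 and the opposite one to Fmo5, Aox1 and Aox3.

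Of 5 tested genes of NADPH supply, 0 passed in Cyp2b-null and 2 in hCYP2B6-Tg livers, both lower in females. Malic enzyme, Me1, differed by -1.22 ± 0.21 (edgeR, adjusted p = 0.00193) and isocitrate dehydrogenase, Idh1, by -0.32 ± 0.08 (edgeR, adjusted p = 0.00803). Of the 4 microsomal electron partners, 0 passed in Cyp2b-null livers and 2 in hCYP2B6-Tg livers, Cyb5r3 (cytochrome b5 reductase) at -0.68 ± 0.12 (edgeR, adjusted p = 0.000699) and Cyb5b at -0.38 ± 0.11 (edgeR, adjusted p = 0.0195). Whether the sexes differed more in 1 genotype than in the other was called for none of these genes in the interaction test.

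Target genes of the aryl hydrocarbon receptor and of NRF2, regulators of drug-metabolizing enzymes, held 3 and 8 tested genes. Nqo1, a quinone reductase on both lists, was higher in females in Cyp2b-null livers (12.9 against 6.81 CPM; log2 difference 0.93 ± 0.20, edgeR, adjusted p = 0.00375) and did not pass in hCYP2B6-Tg livers (0.24, adjusted p = 0.502). Gsta1, a glutathione transferase, was lower in females in hCYP2B6-Tg livers (1.44 ± 0.79 against 4.42 ± 3.32 CPM, SD, n = 4). Its log2 difference was -1.61 ± 0.47 there (SE; edgeR, adjusted p = 0.0329) and -1.13 in Cyp2b-null livers (edgeR, adjusted p = 0.189). The interaction test called neither Nqo1 nor Gsta1 (edgeR, adjusted p = 0.59 and 0.925). No other gene of these 2 lists passed between the sexes. In the genotype contrasts 0 genes of any of the 6 lists passed. The gene with the lowest p of its list differed by list and sex, and its log2 difference of hCYP2B6-Tg from Cyp2b-null is given here. In males these were, with edgeR's adjusted p, Me1 (0.72 ± 0.21, adjusted p = 0.39), Cyb5r3 (0.27 ± 0.12, 0.667), Mocos (-0.19 ± 0.11, 0.742), Slc52a2 of riboflavin transport (-0.33 ± 0.18, 0.74) and, for both lists of target genes, Nqo1 (0.56 ± 0.21, 0.541). In females they were Gstm1 (-0.23 ± 0.09, edgeR, adjusted p = 0.612), Por, the reductase that feeds cytochromes P450 (0.47 ± 0.20, 0.643), Nfs1 (0.15 ± 0.09, 0.728), G6pdx (-0.27 ± 0.20, 0.823), Flad1 (0.12 ± 0.11, 0.852) and Tiparp (-0.18 ± 0.17, 0.877).

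**Figure D4:**
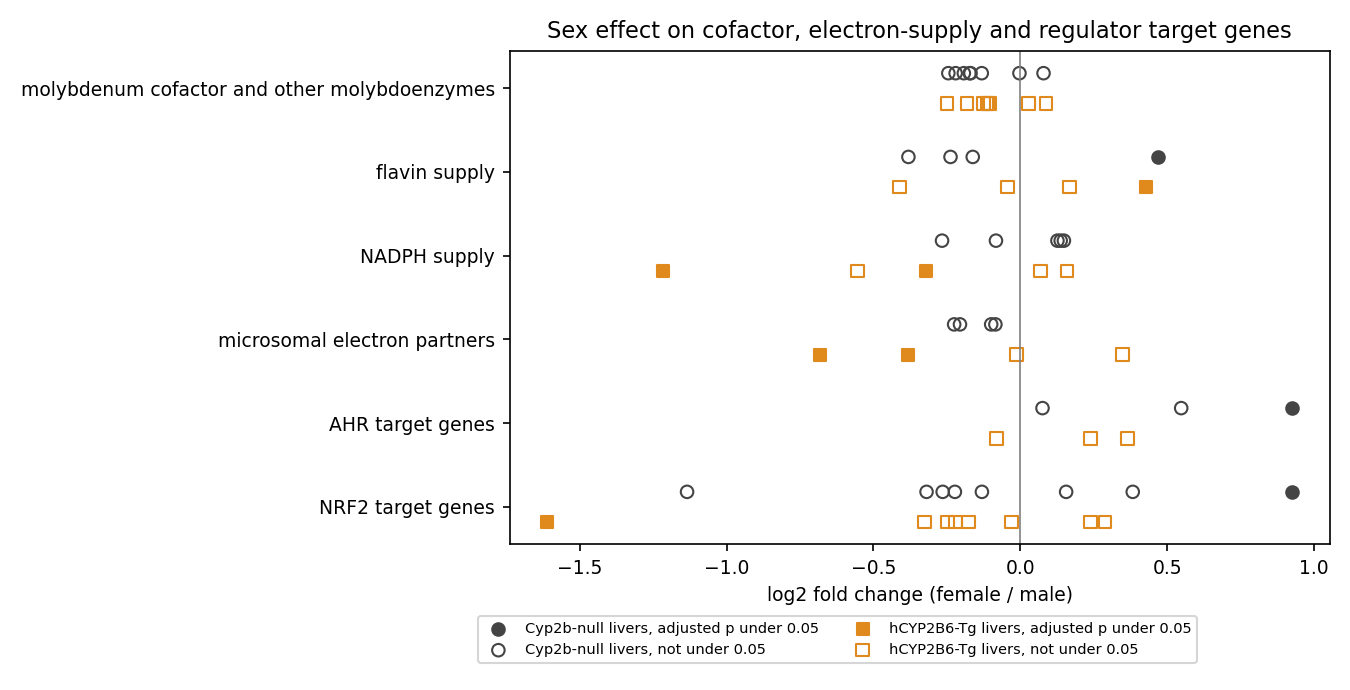
Log2 difference of females from males (horizontal axis) for each tested gene of 6 lists (rows), with circles for Cyp2b-null and squares for hCYP2B6-Tg livers. The lists hold genes of cofactor and electron supply and target genes of regulators of drug-metabolizing enzymes. Each symbol is 1 gene and filled symbols passed the threshold; none of the 8 molybdenum genes is filled in either genotype.

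The genes whose levels ran most like each of the 6 were sought among 7360 genes with a mean of at least 10 CPM. Pearson's r of log2 CPM over the 16 libraries is given as a description, since the libraries share the split by sex. Fmo1 ran closest to Sult2a1 (r = 0.979), Sult2a3 (0.977) and Cyp2a22 (0.975). The Sult2a genes are near copies of each other, so they are uncertain as single genes. Sult2a3 had no count in the 8 male libraries. Fmo2 ran closest to Trim24 (0.973), Cyp2a22 (0.960) and Pcsk5 (0.957), and Fmo4 to Ctsb (0.904), Slc22a29 (0.900) and Maob (0.891). Fmo5 ran closest to Bet1 (0.942), Cmah (0.937) and Ociad2 (0.931), and Aox1 to Apob (0.941), Hsd17b4 (0.937) and Ephx1 (0.930). Aox3 ran closest to Ttc39c (0.972), Phyh (0.971) and Elovl3 (0.971).

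Among themselves, Fmo1 and Fmo2 had r = 0.955 over the 16 libraries, Fmo1 and Fmo4 0.837, Aox1 and Aox3 0.883 and Fmo5 and Aox3 0.903. Fmo1 had r = -0.933 with Aox3 and -0.856 with Fmo5. With the group means taken away, the same pairs had 0.487, 0.614, 0.413, 0.223, 0.041 and 0.283 in that order. Of the 15 pairs, 9 were negative over the 16 libraries, and 3 of these 9 were also negative in the deviations, Fmo2 with Fmo5 (-0.235), Fmo2 with Aox3 (-0.245) and Fmo4 with Aox3 (-0.289). The 6 pairs that were positive over the 16 libraries were positive in the deviations too. In these deviations Fmo2 ran closest to Mpc1 (r = 0.964), Aox1 to Apob (0.904) and Pxmp4 (0.902), Fmo1 to Smg5 (0.878), Fmo5 to Smad3 (0.863), Fmo4 to Mrpl28 (0.856) and Aox3 to Zfp335 (0.798). The deviations within a group share a library's depth and composition.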

How the data were processed

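RNA of liver was sequenced in 16 libraries, 4 from each of 4 groups, extracted with Trizol and prepared with the NEB Next Ultra RNA kit, per the labels' protocols. The authors deposited 1 table of whole-number read counts per gene symbol and library. Build GRCm38.p6 and the tools GSNAP, Subread, Trimmomatic, FastQC and edgeR are named, without versions, per the submitters' processing notes. The sources used here do not give the strand setting or how reads with several matches were counted, which leaves overlapping genes and near copies uncertain. Of the 50-base windows of Fmo1, 7.02% also occur in another gene, of Aox1 0.612% and of Fmo5 0.434%, and none in another FMO or AOX gene.

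Of the 41585 rows, 16032 had no count, 27 names had turned into dates and 2 names were repeated. A further row of the FMO family is not reported here. Libraries of 1 group differed by more than sampling noise (chi-square per degree of freedom 6.53 to 19.7 over 24 pairs). Genes were filtered with filterByExpr (13470 left), scaled by TMM (factors 0.966 to 1.03) and tested in 1 fit of all 16 libraries with edgeR 4.0.16 (glmQLFit with robust estimation, two-sided F test) in R 4.3.3, Benjamini-Hochberg adjusted over the 13470 genes, threshold 0.05. Contrasts were genotype in each sex, its average and its difference between the sexes, and sex in each genotype. The code was tested on simulated data for sex in Cyp2b-null livers over 13470 genes: it recovered 65% of changes of 0.7 and 98% of changes of 1.4 (log2).

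Alternatives were other scalings and filters, DESeq2 1.42.0, limma 3.58.1 (voom), a replicate block and leaving out libraries. The 6 genes, the lists and the tests were chosen with earlier results of these data known. All 6 genes are named in each contrast. A list's genes are named where they passed, at most 4 a contrast, else the 1 with the lowest p. The 3 most alike genes are the highest r among named genes, leaving out predicted ones.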

Additional observations from a re-analysis of the deposited data

How the results depend on the processing

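Between the sexes in Cyp2b-null livers 6 of 6 genes passed under every alternative run, and in hCYP2B6-Tg livers 4 to 6, with Aox1 and Fmo4 the only changes, as given in the report. In the genotype contrasts and their difference 0 passed under every alternative (DESeq2 gave no adjusted p for Fmo4 in females). Of 995 recomputed values of single genes 948 kept direction and call, and the 35 that changed sign were all genotype values with adjusted p of 0.751 or more. Leaving out Cyp2b-null females 1 and 3 and hCYP2B6-Tg male 4 together turned Fmo5 in females to -0.0267, Fmo2 and Fmo4 in males to -0.17 and -0.11, Aox1 averaged to -0.0036, and the difference between the sexes of Fmo1 and Fmo2 to -0.047 and -0.50. Fmo2 in males was -0.093 with limma's quality weights, and its difference -0.0141 with library totals only, -0.10 with voom and -0.20 with quality weights. Leaving out 1 library at a time gave, in females, Fmo1 -0.00743 to 0.0643, Fmo2 -0.10 to 0.21 and Fmo5 -0.0511 to 0.0766. In males it gave Fmo2 -0.17 to 0.27, Fmo4 -0.11 to 0.20 and Aox1 -0.15 to 0.0691, for the average Fmo2 -0.058 to 0.16, and for the difference Fmo1 -0.000258 to 0.0929 and Fmo2 -0.22 to 0.22. The cause was not tested.

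Library numbers in the titles were not taken as pairs of samples. The r of deviations was -0.107 to 0.19 over 18 same-number pairs, with 2 over 0.1. The own number was the best match among a group's 4 libraries in 12 of 36 cases. Such low values cannot show that no pairing existed. With a replicate block 6 and 5 genes passed between the sexes and 0 by genotype, and Aox1 in males became 0.0485.

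Over all tested genes, the genotype calls were 17 in males (5 to 62 under other settings, 2 to 22 without 1 library), 0 in females (0 to 12, 0 to 3), 2 averaged (0 to 34, 0 to 4) and 5 for the difference (4 to 36, 0 to 19). Sex gave 1000 calls in Cyp2b-null (725 to 1157, 741 to 1034) and 1352 in hCYP2B6-Tg livers (1199 to 1678, 956 to 1449). RefSeq transcript lengths were not run, and the longest GENCODE transcript was used instead, chosen after seeing the data. Depth limits Fmo4 most, at 40 to 150 counts.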

Other observations

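Tested genes within 500 kb of the 6 genes, outside the FMO and AOX families, were read for sex, and those named here were chosen after their values were seen. Near Fmo1, Fmo2 and Fmo4, 0 of 3 passed in either genotype. Near Fmo5, 1 of 8 passed in Cyp2b-null livers, Sec22b, a protein of vesicle transport, lower in females with a log2 difference of -0.42 (edgeR, adjusted p = 0.0371), and 0 of 8 in hCYP2B6-Tg livers. Near Aox1 and Aox3, 2 of 11 passed in Cyp2b-null and 3 of 11 in hCYP2B6-Tg livers, all lower in females like the 2 oxidases. They were Gm39643 (-1.19, edgeR, adjusted p = 0.000155, and -0.69, adjusted p = 0.0219), Fam126b (-0.50, adjusted p = 0.0152, and -0.48, adjusted p = 0.015) and, in hCYP2B6-Tg livers, Ndufb3, a subunit of respiratory complex I (-0.53, edgeR, adjusted p = 0.0162). Gm39643 lies within the span of Aox3 in RefSeq. Whether their exons overlap was not checked, so shared reads are possible. Without Gm39643 1 of 10 and 2 of 10 passed. The shares over all tested genes were 7.42% and 10%.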
